A study of Mus musculus with 12 samples.

Results

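Naive and memory T cells are told apart by a small set of genes, and 7 of these were followed here: Tcf7, Lef1, Bach2, Satb1, Id2, Id3 and Cd44. They were chosen by name, with earlier results of these data known. All 7 were listed in both deposited tables, out of 10405 genes listed for regulatory T cells (Treg), 9886 for conventional T cells (Tcon) and 9784 in both. The mice carried the Foxp3 allele of B6.Cg-Foxp3tm2Tch/J (FOXP3-IRES-GFP), which makes GFP beside FOXP3 and was present in treated and control animals alike. They were injected into the peritoneum daily for 2 days with SAH-FOXP3(229-259)C, a stapled peptide named here SAH, at 25 mg/kg, or with vehicle, titled DMSO. Cells labelled CD4+CD25+FOXP3+ Treg and naive CD4+ Tcon gave 6 RNA sequencing libraries each: 2 SAH and 1 vehicle library from spleen, and 2 SAH and 1 vehicle library from lymph node. The sources used here give no age, sex or number of mice per library, so a p-value speaks only of the scatter among these libraries, which may be technical.

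TCF1, the product of Tcf7, and LEF1 are related DNA-binding proteins that partner with beta-catenin or with Groucho corepressors and keep T cells in a naive or long-lived state. BACH2 is a repressor that pairs with small MAF proteins on sites resembling those of AP-1 and restrains effector genes. SATB1 organises chromatin in thymocytes and naive T cells. ID2 and ID3 bind E proteins and keep them off DNA, with ID3 known mostly from naive and memory cells and ID2 from effector cells. CD44 is a receptor for the matrix polymer hyaluronan, and a high level of it on the cell surface is the usual sign of an activated or memory T cell.

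In mm10 the genes lie on several chromosomes, and their coordinates are from GENCODE M21. Tcf7 is at chromosome 11, 52252371 to 52283014, on the minus strand, and Lef1 at chromosome 3, 131110471 to 131224356, on the plus strand. Bach2 is at chromosome 4, 32238804 to 32586108, on the plus strand, and Satb1 at chromosome 17, 51736187 to 51833290, on the minus strand. Id2 is at chromosome 12, 25093799 to 25097140, on the minus strand, Id3 at chromosome 4, 136143497 to 136145755, on the plus strand, and Cd44 at chromosome 2, 102811141 to 102901665, on the minus strand. Genes on the opposite strand are annotated over Tcf7 (A630014C17Rik), Lef1 (Gm43352), Bach2 (Bach2os), Satb1 (Gm6934) and Cd44 (Gm23731). Genes on the same strand overlap Tcf7 (Gm26551), Lef1 (Gm42449), Bach2 (Bach2it1 and Gm24371) and Satb1 (Gm36931 among others). The sources used here do not say whether counting used strand, so reads of the opposite-strand genes could stand in the values of these members. Reads of the same-strand genes could do so in either case. No other annotated gene overlaps Id2 or Id3.

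Id2 and Cd44 were the members called between spleen and lymph node in both cell types, and DNA from their RefSeq promoter windows is shown because E-boxes, the sites of the E proteins that ID proteins restrain, can be read in it. The sequences are the parts of RefSeq promoter windows (GRCm38.p6) outside annotated exons, 5′ to 3′ on the gene's strand, with E-boxes (CANNTG, read on both strands) in capitals. The Id2 stretch lies inside the annotated span of the gene, chr12:25096254-25096342, and the Cd44 stretch directly upstream of the gene, chr2:102901666-102901915.
Id2: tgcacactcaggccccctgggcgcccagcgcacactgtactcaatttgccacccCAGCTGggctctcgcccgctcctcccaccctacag
Cd44: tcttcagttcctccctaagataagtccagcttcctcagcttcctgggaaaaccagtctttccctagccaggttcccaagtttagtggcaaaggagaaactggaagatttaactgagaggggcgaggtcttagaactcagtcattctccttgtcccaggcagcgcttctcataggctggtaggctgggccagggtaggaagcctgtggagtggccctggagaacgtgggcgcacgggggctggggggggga
The Id2 stretch of 89 bases held 1 E-box, and 33.0% of stretches of that length, taken from all 32851 RefSeq windows, held at least one. Those stretches were the first bases of each window with exons left in, unlike the stretches shown, so the shares are a rough guide. The Cd44 stretch of 250 bases held 0, where 66.2% of 250-base stretches held at least one. Neither stretch held a TCF/LEF motif (CTTTGAA or its variant CTTTGAT, and likewise CTTTGTA or its variant CTTTGTT, either strand), which 5.94% of 89-base and 14.8% of 250-base stretches held, nor an AP-1 motif (TGACTCA or its variant TGAGTCA), which 1.42% and 4.46% held. These are matches of letters and carry no measurement of binding.

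The libraries held 36442420 to 48888678 reads in the listed genes, so that 1 read was worth at most 0.0267 CPM, the authors' depth-scaled unit of RNA level. The member value with the fewest reads behind it, Id3 in spleen vehicle Tcon, rested on 588 reads. The cell labels were checked on Foxp3, which averaged 690 ± 27.2 CPM over the 6 Treg libraries, against 22.3 ± 1.85 CPM over the 6 Tcon libraries (SD). Genes of other cells were present and differed between organs: the summed level of the 5 listed of 10 myeloid genes was 91.7 to 121 CPM in spleen Treg and 26.9 to 32.9 CPM in lymph node Treg. The 4 listed in Tcon summed to 37.8 to 43.2 CPM in spleen and 11.2 to 13.4 CPM in lymph node. The B cell sum (3 of 8 genes listed in Treg, 2 of 8 in Tcon) was 23.9 to 24.9 CPM in spleen and 16.1 to 17.2 CPM in lymph node Treg, and 5.39 to 6.85 CPM in spleen and 2.68 to 3.56 CPM in lymph node Tcon. Of 6 red cell genes only Alas2 was listed, in Treg, at 28.8 CPM in one spleen SAH library and at most 4.18 CPM in the other 5 libraries. A lower level of a gene in bulk RNA does not tell fewer cells of a type from less RNA per cell.

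Treg held less RNA of Tcf7, Lef1, Satb1 and Id2 than Tcon and more of Cd44 and Id3, while the Bach2 levels of the cell types overlapped. The authors normalized each table on its own, so the levels are set side by side without a test. Tcf7 averaged 638 ± 29.8 CPM in Treg, against 1742 ± 85.7 CPM in Tcon (SD over 6 libraries each), 0.366 times as much. Lef1 averaged 147 ± 11.3 CPM in Treg, against 397 ± 26.1 CPM in Tcon, 0.371 times as much. The related pair of TCF1 and LEF1 genes thus stood in Treg at nearly the same fraction of the Tcon level. Satb1 averaged 420 ± 33.6 CPM in Treg, against 960 ± 19.0 CPM in Tcon, 0.438 times as much. Id2 averaged 49.8 ± 12.0 CPM in Treg, against 113 ± 17.8 CPM in Tcon, 0.441 times as much. Those 4 ratios lay below 0.644, the 5th percentile of the ratio over the 9784 genes in both tables.

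Id3 averaged 37.2 ± 7.82 CPM in Treg, against 21.1 ± 3.95 CPM in Tcon (SD over 6 libraries each), 1.77 times as much. Cd44 averaged 172 ± 12.7 CPM in Treg, against 75.7 ± 15.1 CPM in Tcon, 2.27 times as much, where the 95th percentile was 2.42 over the shared genes. Bach2 averaged 195 ± 19.7 CPM in Treg, against 199 ± 15.3 CPM in Tcon, and its ranges overlapped. The ranges of the 6 Treg and 6 Tcon libraries did not overlap for the other 6 members, as for 52.1% of all shared genes, 19.1% lower and 33.1% higher in Treg. The labels do not say how naive Tcon were sorted: if by surface CD44, their low Cd44 level follows from the sort.

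**Figure D1:**
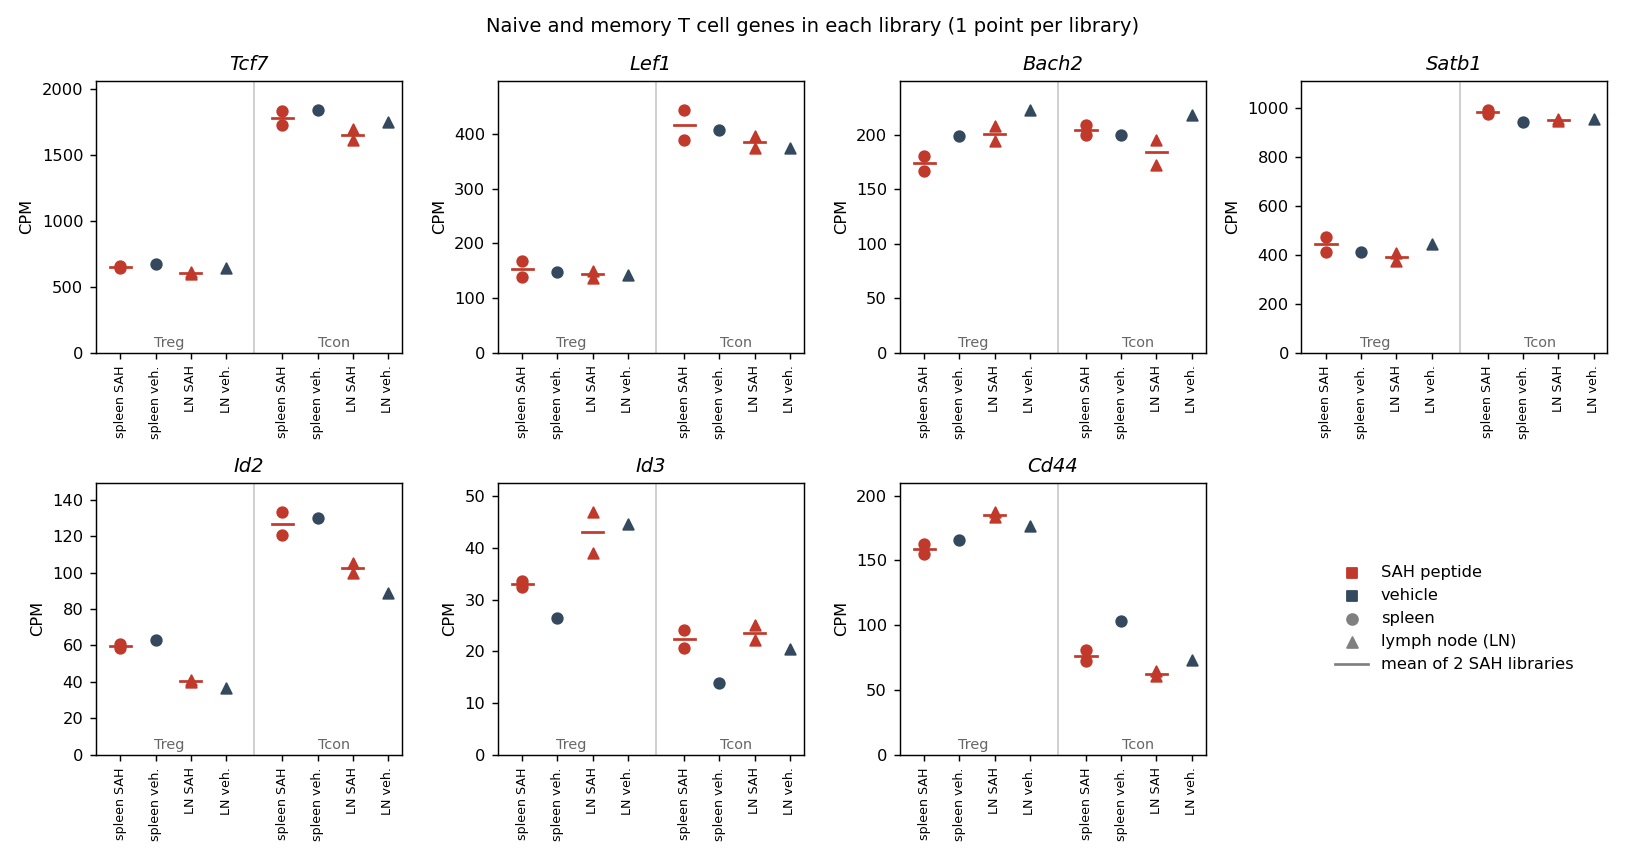
CPM of each gene (y axis, linear from 0) in each of 12 libraries, grouped on the x axis by cell type, organ and treatment, with Treg left of Tcon; red points are SAH libraries, dark points vehicle libraries, circles spleen, triangles lymph node (LN), and lines the mean of 2 SAH libraries. Tcf7, Lef1, Satb1 and Id2 are lower in all Treg libraries than in any Tcon library, Id3 and Cd44 are higher, and Bach2 overlaps.

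Organ moved the ID genes in opposite directions in Treg, with Id2 higher and Id3 lower in spleen than in lymph node, and Cd44 and Bach2 slightly lower in spleen. With limma and Benjamini-Hochberg adjustment over all genes, 4 of 7 members were called (adjusted p below 0.05), 1 higher and 3 lower, beside 14.7% of all Treg genes, 8.71% higher and 6.01% lower. Tcf7, Lef1 and Satb1 were not called. In Tcon 2 of 7 members were called, Id2 and Cd44, both higher in spleen, beside 4.73% of all Tcon genes, 3.28% higher and 1.46% lower. The 3 spleen and 3 lymph node libraries did not overlap for 3 of 7 members in Treg (Id2, Id3 and Cd44), beside 32% of all Treg genes, and for 1 of 7 in Tcon (Id2), beside 19.3% of all Tcon genes. In the fits below, leaving out either vehicle library rests the organ difference on the SAH libraries alone. Those 2 fits give the same estimate and are 1 check.

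Among the ID inhibitors, Id2 had 60.8 and 58.3 CPM in spleen SAH, 62.8 CPM in spleen vehicle, 40.8 and 40.1 CPM in lymph node SAH and 36.3 CPM in lymph node vehicle Treg. Every spleen Treg library lay above every lymph node one. The log2 difference of Id2 in Treg was 0.62 (95% interval 0.49 to 0.75, limma, Benjamini-Hochberg adjusted p = 7.17e-06), and Id2 kept its call with each library left out in turn. In Tcon, Id2 had 120.4 and 133 CPM in spleen SAH, 130.1 CPM in spleen vehicle, 99.99 and 105 CPM in lymph node SAH and 88.8 CPM in lymph node vehicle. The Tcon organs did not overlap either, and Id2 thus kept 1 order in all libraries: spleen Tcon, lymph node Tcon, spleen Treg, lymph node Treg, with no overlap between neighbours. The Id2 difference in Tcon was 0.38 on the log2 scale (0.24 to 0.53, limma adjusted p = 0.00838), and 0.30 (adjusted p = 0.0579) without the lymph node vehicle library or (adjusted p = 0.0583) without the spleen vehicle library. The test of the difference between cell types gave 0.24 on the log2 scale (0.043 to 0.44, limma adjusted p = 0.283) and was called with library number as a replicate block (adjusted p = 0.0275).

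Id3 had 33.5 and 32.4 CPM in spleen SAH, 26.5 CPM in spleen vehicle, 47.0 and 39.0 CPM in lymph node SAH and 44.6 CPM in lymph node vehicle Treg. All spleen Treg libraries lay below all lymph node ones, the reverse of Id2. The Id3 difference in Treg was -0.49 on the log2 scale (95% interval -0.67 to -0.31, limma adjusted p = 0.00111), and the call held with each library left out (-0.60 to -0.37). In Tcon, Id3 had 20.6 and 24.1 CPM in spleen SAH, 13.9 CPM in spleen vehicle, 22.2 and 25.0 CPM in lymph node SAH and 20.5 CPM in lymph node vehicle. The Tcon organs overlapped, and the log2 difference was -0.23 (-0.46 to 0.00068, limma adjusted p = 0.287). The difference between cell types was -0.26 (-0.58 to 0.063, limma adjusted p = 0.535).

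Cd44 differed between organs in opposite directions in the 2 cell types. It had 163 and 155 CPM in spleen SAH, 166 CPM in spleen vehicle, 183 and 188 CPM in lymph node SAH and 176 CPM in lymph node vehicle Treg. Treg from spleen were below Treg from lymph node in every library, by a log2 difference of -0.18 (95% interval -0.28 to -0.074, limma adjusted p = 0.0237). In Tcon, Cd44 had 80.9 and 72.1 CPM in spleen SAH, 103 CPM in spleen vehicle, 64.4 and 60.7 CPM in lymph node SAH and 73.3 CPM in lymph node vehicle. The Tcon ranges touched, since one spleen SAH library lay below the lymph node vehicle library, but within each treatment spleen was higher, by 0.35 overall (0.20 to 0.50, limma adjusted p = 0.0143). The difference between cell types was -0.53 (-0.71 to -0.35, limma adjusted p = 0.0034), the only one of 7 members called in that test, beside 1.46% of 9784 genes, 1.09% lower. It was -0.50 (adjusted p = 0.0588) without the libraries numbered 3, lymph node SAH. Within cell types the calls of Cd44 were less firm: in Treg the call was lost without either lymph node SAH library (adjusted p = 0.115 and 0.118), and in Tcon it was lost without either vehicle library (0.28, adjusted p = 0.0972 and 0.0979), without lymph node SAH library 3 (adjusted p = 0.0975) and without spleen SAH library 5 (adjusted p = 0.0647).

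Bach2 had 167 and 180.5 CPM in spleen SAH, 199 CPM in spleen vehicle, 194 and 208 CPM in lymph node SAH and 223 CPM in lymph node vehicle Treg. The organs overlapped, but within each treatment spleen was lower, by a log2 difference of -0.19 (95% interval -0.30 to -0.087, limma adjusted p = 0.0174). That call was lost without either vehicle library (adjusted p = 0.0786 and 0.0772) and without either lymph node SAH library (adjusted p = 0.0519 and 0.107). In Tcon, Bach2 had 200.2 and 209 CPM in spleen SAH, 199 CPM in spleen vehicle, 173 and 195 CPM in lymph node SAH and 218 CPM in lymph node vehicle, with a difference of 0.063 (-0.095 to 0.22). The organ difference of Bach2 differed between cell types by -0.26 (-0.45 to -0.061, limma adjusted p = 0.238), and was called with the replicate block (adjusted p = 0.0176).

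Tcf7 had 639.8 and 661 CPM in spleen SAH, 676 CPM in spleen vehicle, 609 and 598 CPM in lymph node SAH and 643 CPM in lymph node vehicle Treg. In Tcon it had 1829 and 1727 CPM in spleen SAH, 1838 CPM in spleen vehicle, 1694 and 1610.2 CPM in lymph node SAH and 1751 CPM in lymph node vehicle. Organs overlapped in both cell types, and the log2 differences of 0.095 (95% interval -0.0078 to 0.20) in Treg and 0.094 (-0.024 to 0.21) in Tcon were not called. Lef1 ranged from 139 to 168 CPM in spleen and from 137 to 150.4 CPM in lymph node Treg, a difference of 0.078 (-0.061 to 0.22). In Tcon it ranged from 389 to 443 CPM in spleen and from 374 to 397 CPM in lymph node, a difference of 0.11 (-0.018 to 0.24). Both TCF family genes therefore overlapped between organs in both cell types. Satb1 ranged from 410.0 to 472 CPM in spleen and from 376 to 446 CPM in lymph node Treg, and its difference was 0.076 (-0.070 to 0.22). In Tcon it ranged from 939.7 to 989.6 CPM in spleen and from 947 to 954 CPM in lymph node, and its difference was 0.026 (-0.081 to 0.13).

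**Figure D2:**
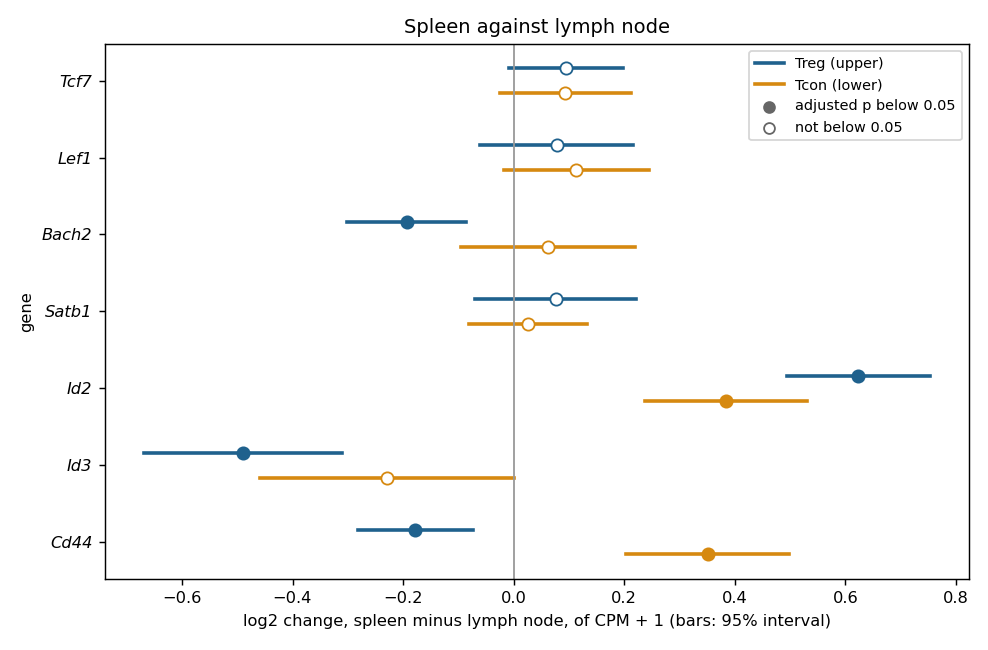
Log2 difference of CPM + 1, spleen minus lymph node (x axis), for each gene (y axis) in Treg (blue, upper) and Tcon (orange, lower); points are limma estimates, filled where the adjusted p was below 0.05, and bars are 95% intervals. Id2 is to the right in both cell types, Id3 to the left and filled in Treg, and Cd44 is on opposite sides of 0.

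The genes around the members also differed between organs, and their counts are set beside 8.71% higher and 6.01% lower of all genes in Treg and 3.28% higher and 1.46% lower in Tcon. The lists were chosen with earlier results of these data known. Each listed gene reached 1 CPM in at least 3 libraries, and each organ gave 3 per cell type. A gene near that floor could thus be listed through 1 organ alone, and such genes were not set apart in the counts. Of 24 memory and effector T cell genes tested in Treg, 14 were higher and 1 lower in spleen, with a median log2 difference of 0.39 beside -0.0028 over all Treg genes. The integrin chain Itga4 (0.69), the chemokine receptor Cxcr3 (0.92) and the lectin receptor Klrg1 (2.07) were higher, and the chemokine receptor Ccr6 (-1.09) was lower. In Tcon, 18 of 21 were higher and 0 lower, with a median of 1.01, led by the interferon gene Ifng (2.64), Cxcr6 (2.76), the transcription factor gene Tbx21 (2.51) and Cxcr3 (2.17). The organ difference of 11 of 21 was called as lower in Treg than in Tcon and that of 0 as higher, beside 1.09% of all genes called lower, the same side as Cd44. With each library left out, 12 to 16 memory genes were higher in spleen Treg and 15 to 19 in spleen Tcon. Of 20 naive and lymph node homing genes, 2 were higher and 7 lower in spleen Treg, with Igfbp4 (-0.79), Treml2 (-0.49) and Nsg2 (-0.42) lower and Klf2, a factor behind T cell exit from tissue, higher (0.51). In Tcon 3 of 20 were higher and 0 lower, among them the survival gene Bcl2 (0.33), the kinase gene Txk (0.26) and Myb (0.26). With each library left out the Tcon count ran between 1, Bcl2 alone (without spleen SAH library 5), and 4 higher with 1 lower (without lymph node SAH library 2), and the Treg count between 1 and 3 higher and 5 and 9 lower.

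Partners and targets of each member were read in the same way. Of 15 BACH2 partners and targets in Treg, 12 were higher and 0 lower in spleen, with a median of 0.39. With a library left out, 8 to 12 were higher. The list mixes BACH1, small MAF partners, AP-1 factors and genes known to be repressed by BACH2. Its relation to the lower Bach2 level in spleen Treg was not tested. The 12 included Klrg1 (2.07), the haem-degrading enzyme gene Hmox1 (1.20), the AP-1 subunit gene Jund (0.52) and the repressor gene Nfil3 (0.53). The list shares Klrg1 and Prdm1 with the memory list. Il7r likewise stands in both the naive list and the E protein network list below, and was counted as higher in spleen Treg in each. In Tcon 5 of 13 were higher and 0 lower, among them the gut homing receptor gene Ccr9 (1.19), Rora (0.83), the small MAF gene Maff (0.31) and Prdm1 (0.40). That count was 3, without Prdm1, when library 1, 3, 4 or 5 was left out, and without library 2 it was 5 higher and 2 lower. Of 8 E protein network genes in Treg, 4 were higher in spleen and 0 lower, namely the follicular homing receptor gene Cxcr5 (0.38), the IL-7 receptor gene Il7r (0.29), Socs3 (0.20) and Lyl1 (0.52), a count that fell to 1 without either vehicle library or without lymph node SAH library 2. In Tcon 1 of 6 was called, Cxcr5 (0.80), and Socs3 stood at 0.24 (limma adjusted p = 0.0993). That call of Cxcr5 was lost without lymph node SAH library 3. Of 13 TCF/LEF partners in Treg 3 were higher, among them Tle4 (0.20) and Axin2 (0.26), and 2 lower, Bcl9 (-0.25) and Ctnnb1 (-0.15). Without lymph node SAH library 2 none of the 13 was called (0 higher, 0 lower), and without either vehicle library Axin2 alone was. In Tcon 0 of 12 were called, with Axin2 at 0.20 (limma adjusted p = 0.0729) and Bcl9 at -0.24 (adjusted p = 0.0776). Of 10 SATB1 and CD44 partners in Treg, the membrane linker gene Ezr (0.26) and the protease gene Mmp9 (0.56) were higher and Rdx (-0.15) lower, and in Tcon Mmp9 (2.71) was the one called of 9. In Treg, Ezr kept its call with each library left out, and Mmp9 lost its call without spleen vehicle library 4. Rdx kept its call only without spleen SAH library 5.

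Some genes of CD8 T and natural killer cells differed between organs in Tcon beside Id2, Cd44 and the memory list. Of 6 tested, 4 were called higher in spleen and 0 lower, beside 3.28% and 1.46% of all Tcon genes. The other 2 were not called, and 1 of the 6 had a negative difference. As with the lists above, a gene could be listed through spleen alone, and such genes were not set apart. The 6 listed of 9 summed to 74.1 and 78.2 CPM in spleen SAH and 103 CPM in spleen vehicle Tcon, against 36.6 to 41.1 CPM in lymph node Tcon. The CD8 chain gene Cd8b1 was among the 6, while the marker genes Cd8a, Ncr1 and Gzma were not listed for Tcon and were not analysed here. In Treg the 4 listed summed to 28.1 to 29.9 CPM in spleen and 37.0 to 38.6 CPM in lymph node, but they went both ways, with Klrb1c called higher (1.02), Nkg7 called lower (-0.81) and the other 2 not called. The plasma cell sum (2 of 5 genes) was 143 to 221 CPM in spleen and 98.1 to 127 CPM in lymph node Tcon, and 173 to 216 CPM in spleen and 81.5 to 98.2 CPM in lymph node Treg. In Tcon the 2 plasma cell genes went opposite ways, with 1 called higher in spleen and 1 negative and not called. In Treg 2 of 2 had a positive difference and 1 was called. The part of these and of the myeloid genes in the organ differences was not tested.

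**Figure D3:**
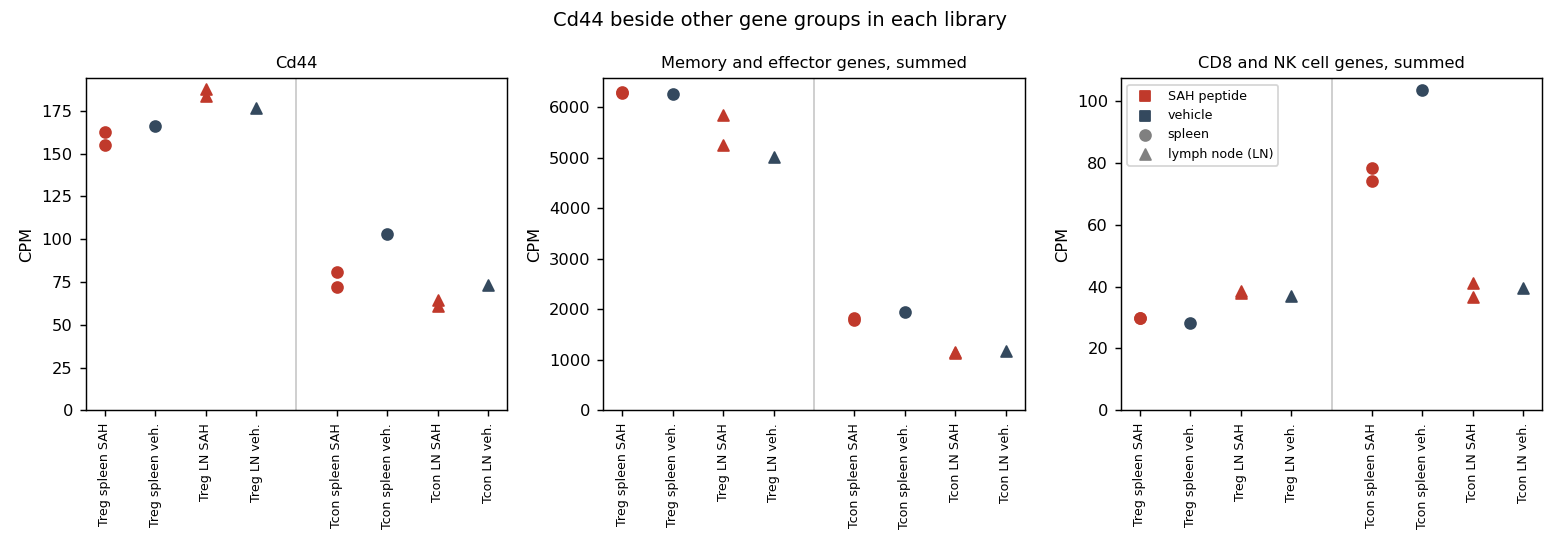
CPM (y axes, linear from 0) of Cd44, of memory and effector genes summed and of CD8 and natural killer (NK) cell genes summed in each of 12 libraries (x axis, by cell type, organ and treatment; red SAH, dark vehicle, circles spleen, triangles lymph node, LN). In Tcon the spleen vehicle library is the highest in all 3 panels, with Cd44 at 103 CPM; in Treg, Cd44 is lower in spleen while the memory sum is higher there, at 6262 to 6306 CPM against 5020 to 5843 CPM in lymph node.

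SAH changed the RNA of none of the 7 members past the threshold in either cell type, and the values nearest to it were Cd44 and Id3 in Tcon. In Treg 0 of 7 were called by limma, beside 0.202% of all genes (21 of 10405), and 1 of 7 had an unadjusted p below 0.05, beside 7.04% of all genes. In Tcon 0 of 7 were called, beside 1.04% of all genes (103 of 9886), and 2 of 7 had an unadjusted p below 0.05, beside 14.1%. The authors' deposited table called Id3 up (log2 change 0.44, false discovery rate 0.0264) and Cd44 down (-0.33, false discovery rate 0.0012) in Tcon and none of the 7 in Treg. The other 5 members in Tcon were not called in the authors' deposited table.

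Cd44 in Tcon, at the values given above, was lower in 4 of 4 SAH libraries than in the vehicle library of their organ, as were 16.7% of all genes. Its log2 change was -0.33 (95% interval -0.48 to -0.17, limma adjusted p = 0.0599), -0.42 in spleen (-0.63 to -0.22, adjusted p = 0.123) and -0.23 in lymph node (-0.43 to -0.020, adjusted p = 0.47). Without the libraries numbered 2 in lymph node it was called (-0.36, adjusted p = 0.033). In Treg the change was 0.0033 (-0.11 to 0.11). The difference between cell types, 0.33 (0.14 to 0.52, limma adjusted p = 0.658), was called with the replicate block (adjusted p = 0.00923), where 76 genes in all were called and 0 without it. Beside the lower Cd44, memory and effector genes summed to 1823 and 1778 CPM in spleen SAH and 1946 CPM in spleen vehicle Tcon, and to 1126 and 1148 CPM in lymph node SAH and 1171 CPM in lymph node vehicle Tcon. Of those 21 genes 0 were called with SAH, while 17 had a negative change, with a median of -0.13 beside -0.0028 over all Tcon genes. The median of the 21 was -0.012 without the spleen vehicle library and -0.28 without the lymph node vehicle library. The CD8 and natural killer sum was lower with SAH in spleen, as given above, and in lymph node was 41.1 and 36.6 CPM in SAH and 39.6 CPM in vehicle. Of its 6 genes 0 were called with SAH in Tcon, beside 1.04% of all Tcon genes, and 2 had a positive and 4 a negative change. The plasma cell sum in spleen Tcon was 147 and 143 CPM in SAH and 221 CPM in vehicle. Of its 2 genes 0 were called with SAH in Tcon, and 1 had a positive and 1 a negative change. The part of these gene groups in the Cd44 values was not tested.

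Id3 in Tcon was higher in 4 of 4 SAH libraries than in vehicle, as were 16.6% of all genes, with a log2 change of 0.42 (95% interval 0.17 to 0.66, limma adjusted p = 0.113). The change was 0.64 in spleen (0.37 to 0.92, adjusted p = 0.0714) and 0.19 in lymph node (-0.083 to 0.47, adjusted p = 0.696). Without the spleen vehicle library, whose 13.9 CPM was the lowest Id3 value of all 12 libraries, the change was 0.19. It was called without the libraries numbered 2 (0.49, adjusted p = 0.0447). In Treg it was 0.12 (-0.067 to 0.31), 0.30 in spleen and -0.057 in lymph node. The test of the SAH change between organs gave 0.36 in Treg (95% interval 0.027 to 0.69) and 0.45 in Tcon (0.063 to 0.84), neither called by limma after adjustment.

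Bach2 in Treg was lower in 4 of 4 SAH libraries than in the vehicle library of their organ, as were 11.7% of all genes. Its log2 change was -0.17 (95% interval -0.28 to -0.057, limma adjusted p = 0.42), -0.19 in spleen and -0.15 in lymph node. In Tcon the change was -0.10 (-0.27 to 0.062). Tcf7 was likewise below its organ's vehicle in 4 of 4 SAH libraries in both cell types (beside 11.7% of genes in Treg and 16.7% in Tcon), and stood at -0.074 in Treg (-0.18 to 0.036) and at -0.067 in Tcon (-0.19 to 0.059), not called in either. Lef1 stood at 0.029 in Treg (-0.12 to 0.18) and 0.035 in Tcon (-0.10 to 0.17). Satb1 stood at -0.043 in Treg (-0.20 to 0.11) and 0.030 in Tcon (-0.083 to 0.14), and Id2 at 0.038 in Treg (-0.10 to 0.18) and 0.084 in Tcon (-0.072 to 0.24).

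**Figure D4:**
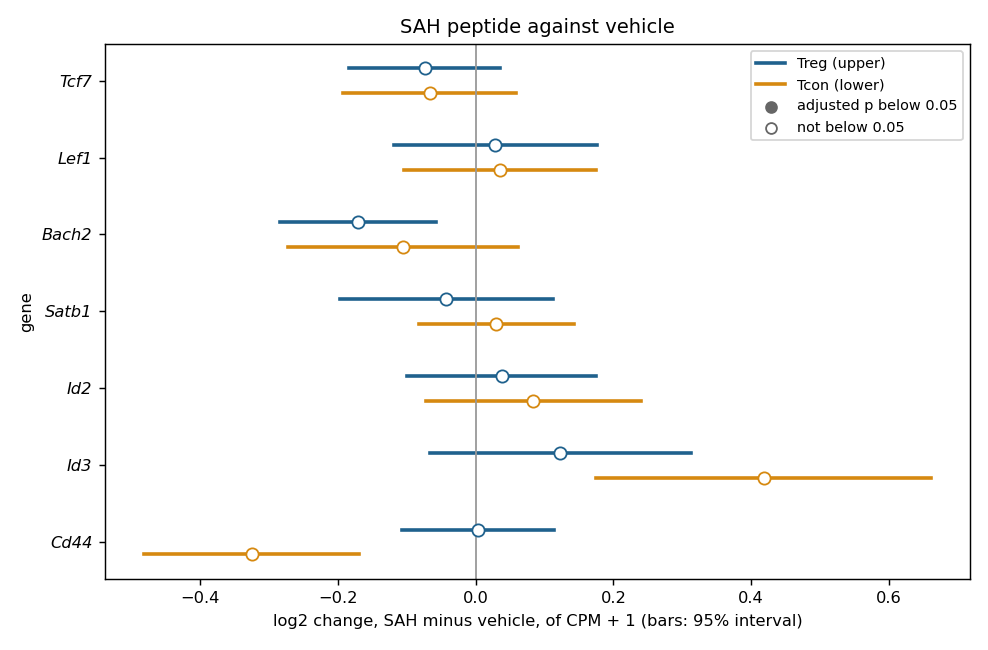
Log2 change of CPM + 1, SAH minus vehicle (x axis), for each gene (y axis) in Treg (blue, upper) and Tcon (orange, lower); points are limma estimates, all open since no adjusted p was below 0.05, and bars are 95% intervals. The intervals of Cd44 and Id3 in Tcon and of Bach2 in Treg lie clear of 0, and near-zero values such as Cd44 in Treg and Lef1 and Satb1 in Tcon changed sign when each library was rescaled to a common total.

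The SAH change did not differ between organs past the threshold for any of the 7 members in Treg (0.00961% of all genes called, 2.41% with an unadjusted p below 0.05) or in Tcon (0% called, 5.1% with an unadjusted p below 0.05). Besides Id3, Satb1 in Treg (0.29, 0.011 to 0.58) and Bach2 in Tcon (0.29, 0.0077 to 0.56) had 95% intervals of that difference that lay above 0. Satb1 in Treg was called without spleen SAH library 5 (0.39, limma adjusted p = 0.0498). Between cell types 0 of 7 were called, as were 0 of 9784 genes, and 4.63% of genes had an unadjusted p below 0.05. With the replicate block 1 of 7, Cd44, and 76 genes in all were called.

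Among the genes around the members, SAH was followed by few calls. In Treg 0 genes were called in any of the 6 lists, beside 0.202% of all Treg genes. The lowest limma p-values were those of Gzmb (0.59, adjusted p = 0.194) and Itgb1 (0.24, adjusted p = 0.289) in the memory list and Klf2 (0.30, adjusted p = 0.221) and Il7r (0.21, adjusted p = 0.489) in the naive list. In Tcon the E protein list held Socs3, a brake on cytokine signalling, higher with SAH (0.64, limma adjusted p = 0.0052), the BACH2 list held Maff (0.36, adjusted p = 0.0157), and the TCF/LEF list held Axin2, a feedback gene of WNT signalling (0.31, adjusted p = 0.0406). Each was the 1 called gene of its list, of 6, 13 and 12 tested, beside 1.04% of all Tcon genes. Socs3 lost its call without the libraries numbered 3 (lymph node SAH) or 4 (spleen vehicle), Maff kept its call only without those numbered 2 or 5, and Axin2 only without those numbered 2. In the naive list 0 of 20 were called in Tcon, with Bcl2 at 0.20 (adjusted p = 0.105) and Igfbp4 at 0.18 (adjusted p = 0.259).

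Genes with the pattern most like each member were read from Pearson's r of log2(CPM + 1) over the 12 libraries, which all share the difference between cell types. For Tcf7 they were Bbs9, Themis and Dapl1 (r = 0.997, 0.997 and 0.996), and for Lef1 Themis, Lmo4 and Prf1 (r = 0.995 each). For Satb1 they were Vipr1, Prf1 and Atp8b4 (r = 0.996, 0.995 and 0.995), and for Id2 Stim1, Hnrnpc and Plcl2 (r = 0.992, 0.991 and 0.991). For Cd44 they were Irf8, Ccdc50 and Pogk (r = 0.993, 0.988 and 0.987), and for Id3 Marcksl1 (r = 0.976) and 1 gene listed as both Car12 and Ca12 (r = 0.967). Bach2, whose levels overlapped between cell types, had none above 0.803 (Zfp397, then Rasgrp1 and Ralgps2 at 0.784 and 0.782). Tcf7 and Lef1 followed each other over the 12 libraries (r = 0.991), and after the mean of each cell type was taken out r was 0.21, while that of Id2 and Id3 was -0.66.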

How the data were processed

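The 7 genes and the lists of related genes were chosen with earlier results of these data known. RNA was extracted and sequenced from stranded mRNA libraries, per the labels' protocols. TopHat, Bowtie, edgeR and the build mm10 are named without versions, per the submitters' processing notes, while the sources used here name neither annotation nor counting program. For each cell type the authors deposited 1 table of normalized signal per library, headed CPM. Column totals were 971928 to 1021433, so each library carried a scaling factor of its own. Every listed gene reached 1 CPM in at least 3 libraries, and genes below that were not analysed here. The deposited log2 fold change, likelihood ratio score, p-values and calls are the authors' comparison of SAH and vehicle, per the file headers, and are used only where named.

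Depth was read from low values, and 100% of all values in each library came out within 0.1 of a whole read. Since the values are scaled, they were tested as log2(CPM + 1) with limma 3.58.1 in R 4.3.3 (empirical Bayes with intensity trend, two-sided, genes with at least 1 CPM in 2 libraries), adjusted by Benjamini-Hochberg across every gene tested and called below 0.05. On this scale the change of low genes is understated. Organ and treatment were terms of 1 model per cell type with 3 residual degrees of freedom, an interaction gave the SAH change between organs, and 1 model of 12 libraries gave differences between cell types. The fits were tested on simulated data. The Treg and Tcon libraries share numbers 1 to 6: their deviations from the group mean went together in both pairs of SAH libraries (r = 0.438 in lymph node, 0.556 in spleen, over 9784 genes; a pair gives 1 independent deviation, and single vehicle libraries give none). Results from a fit with the number as a block are given where they change a call. List genes named are up to 4 of those called by lowest adjusted p, or the 2 with the lowest p where fewer than 2 were called. Alternatives were the pseudocount, filter, trend, scaling, duplicate symbols, SAH libraries alone, the block and each library left out. In all 95.9% of symbols matched GENCODE M21, the source of coordinates.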

Additional observations from a re-analysis of the deposited data

Results flagged for a closer look

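Cd44 stood out because its difference between spleen and lymph node was itself different in Treg and Tcon, by -0.53 on the log2 scale (95% interval -0.71 to -0.35, limma with Benjamini-Hochberg adjustment over 9784 genes, adjusted p = 0.0034). All 3 spleen Treg libraries lay below all 3 lymph node Treg libraries, whereas Tcon had more Cd44 in spleen within each treatment. With library number as a replicate block the adjusted p was 5.85e-06. It was called in 5 of 6 fits that leave out a library number, and not without the libraries numbered 3 (-0.50). The fits without number 1 and without number 4 both rest on the SAH libraries alone and are 1 check.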

How the results depend on the processing

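The 56 values of the members (7 genes in 8 comparisons) kept direction and call under pseudocounts of 0.1 and 0.5, a filter of 5 CPM and 1 symbol per gene. The fit without a filter was the same fit, since every listed gene passes the filter. None of the 7 called values reversed under any alternative run, including each library left out. Without the intensity trend 2 members were called between organs in Treg in place of 4 (Bach2 adjusted p = 0.0879, Cd44 0.0996). Among SAH libraries alone 0 were called between organs in Tcon in place of 2. With the replicate block 1 member differed in its SAH change between cell types and 3 in the organ difference, in place of 0 and 1; it changed no other member's call. Over all genes the block gave 76 and 703 calls, against 0 and 143 without it. Left-out libraries gave 2 to 4 called members between organs in Treg, 0 to 2 in Tcon, 0 to 2 for SAH in Tcon, 0 to 1 for the SAH change between organs in Treg and 0 to 1 for the organ difference between cell types. Over all genes they gave 7 to 95 calls for SAH in Treg (21 with all libraries), 11 to 226 for SAH in Tcon (103), 0 to 94 for the SAH change between organs in Treg (1) and 0 to 15 in Tcon (0). Between organs they gave 768 to 1830 in Treg (1531), 215 to 628 in Tcon (468) and 62 to 133 for the difference between cell types (143). Fitting no trend gave 7 for SAH in Treg and 11 in Tcon. List counts with a library left out were added after seeing the data.

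Rescaling each library to a common total turned 6 values close to 0: SAH in Treg for Cd44 (-0.017), SAH in Tcon for Lef1 (-0.010) and Satb1 (-0.015), the SAH change between cell types for Tcf7 and Lef1 (0.018 each) and the organ difference between cell types for Tcf7 (-0.010). Ranges that crossed 0 with a library left out were, for SAH in Treg, Satb1 -0.19 to 0.10, Id2 -0.075 to 0.15, Cd44 -0.064 to 0.071, Id3 -0.057 to 0.30 and Lef1 -0.032 to 0.083; for SAH in Tcon, Bach2 -0.25 to 0.038, Id2 -0.037 to 0.20, Satb1 -0.0035 to 0.064 and Lef1 -0.0042 to 0.077. Between organs they were Lef1 -0.0029 to 0.15 and Satb1 -0.0076 to 0.17 in Treg and Bach2 -0.014 to 0.16 in Tcon. For the SAH change between organs they were Lef1 -0.094 to 0.17 and Bach2 -0.10 to 0.0062 in Treg and Tcf7 -0.0053 to 0.077 and Lef1 -0.11 to 0.080 in Tcon. Between cell types they were Lef1 -0.034 to 0.021, Satb1 -0.19 to 0.040, Tcf7 -0.035 to 0.020 and Bach2 -0.23 to 0.10 for SAH and Tcf7 -0.035 to 0.038 and Satb1 -0.021 to 0.13 for organ. None of these values was called. The causes were not tested.

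A count test planned on whole reads was not run. The deposited values are scaled CPM, and the reads recovered from them were not used as counts in a test. Without a vehicle library the SAH change between organs could not be fitted, and the SAH change then rests on 1 organ. The organ difference then rests on the SAH libraries alone, whichever vehicle library is left out. With 1 vehicle library per organ, the spread comes mainly from pairs of SAH libraries.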
